A study of Mus musculus with 6 samples.

Results

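Genes of the interferon response and of antigen presentation were read from RNA sequencing of primary mouse epidermal keratinocytes in which the microRNA miR-148a had been raised. The 9 genes are Stat2, Irf1, Irf7, Irf9, Isg15, Ifitm3, Bst2, B2m and Tap1, out of 25112 genes with a symbol in the authors' deposited table. They were taken by gene symbol, and each gene was represented by its RefSeq transcript with the highest base mean, the authors' mean normalized count over all libraries compared. Wild-type C57BL/6 keratinocytes came from the skin of pups aged 1 to 3 days and were grown in medium with 0.05 mM calcium, a low concentration that keeps these cells proliferating. One group of 3 libraries was transfected with pro-miR-148a at 200 nM and the other, also of 3 libraries, with the control small RNA miR-Control, and RNA was collected after 48 h. The labels do not say whether the libraries of a group came from separate cultures or animals, so the p-values may measure technical spread only. The titles of the miR-148a libraries carry, before the replicate number, the numbers 1, 2 and 1, and those of the control libraries 1, 2 and 3; whether 2 of the miR-148a libraries share a source is not stated. The control cells were transfected as well, but the labels give the dose beside pro-miR-148a, and whether the control dose was equal is not stated.

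Type I interferons are secreted when a cell senses viral nucleic acid. They bind the receptor pair IFNAR1 and IFNAR2, and type II interferon binds the pair IFNGR1 and IFNGR2. Janus kinases then phosphorylate STAT proteins. STAT2 and IRF9 are subunits of the complex ISGF3, which binds the interferon-stimulated response element (ISRE), while STAT dimers bind the gamma-activated site (GAS). The induced genes include antiviral effectors and the machinery that loads peptides onto major histocompatibility complex (MHC) class I molecules for display to T cells. Keratinocytes carry these receptors and display class I molecules as part of the skin's barrier against infection.

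The miRNA is shown first, because its seed sets the sites searched below, and with it the promoters of the 6 members that held letters bound by interferon-activated factors. The mature miR-148a-3p has its seed, bases 2 to 8, in capitals.
mmu-miR-148a-3p: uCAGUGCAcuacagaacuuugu
The promoter windows run from 250 bases before the annotated start of transcription to 50 bases after it, on the gene's strand. They are RefSeq sequences of build GRCm38.p6, which is not the build mm9 of the submitters' processing notes. Capitals mark the ISRE core, GAAA followed after 2 bases of any kind by GAAA, and the GAS core TTCNNNGAA, searched on either strand; overlapping matches run together.
B2m, chr2:122147437-122147736, plus strand: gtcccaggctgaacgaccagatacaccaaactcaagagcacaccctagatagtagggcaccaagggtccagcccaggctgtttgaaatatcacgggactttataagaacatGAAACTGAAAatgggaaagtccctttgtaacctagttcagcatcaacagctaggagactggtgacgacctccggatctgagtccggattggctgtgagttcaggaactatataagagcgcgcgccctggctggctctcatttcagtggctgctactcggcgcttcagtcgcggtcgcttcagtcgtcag
Ifitm3, chr7:141010695-141010994, minus strand: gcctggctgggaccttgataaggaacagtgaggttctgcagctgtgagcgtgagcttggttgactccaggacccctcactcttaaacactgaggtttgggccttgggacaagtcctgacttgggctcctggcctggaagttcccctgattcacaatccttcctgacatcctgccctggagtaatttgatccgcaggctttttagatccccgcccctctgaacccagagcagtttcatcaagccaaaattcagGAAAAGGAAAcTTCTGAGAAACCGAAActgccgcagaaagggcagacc
Isg15, chr4:156200769-156201068, minus strand: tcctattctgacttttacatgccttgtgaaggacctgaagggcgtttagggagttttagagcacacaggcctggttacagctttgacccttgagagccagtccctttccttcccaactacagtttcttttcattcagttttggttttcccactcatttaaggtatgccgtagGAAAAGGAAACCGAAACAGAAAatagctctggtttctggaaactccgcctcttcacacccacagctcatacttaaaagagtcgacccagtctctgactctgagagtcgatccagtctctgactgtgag
Bst2, chr8:71537423-71537722, minus strand: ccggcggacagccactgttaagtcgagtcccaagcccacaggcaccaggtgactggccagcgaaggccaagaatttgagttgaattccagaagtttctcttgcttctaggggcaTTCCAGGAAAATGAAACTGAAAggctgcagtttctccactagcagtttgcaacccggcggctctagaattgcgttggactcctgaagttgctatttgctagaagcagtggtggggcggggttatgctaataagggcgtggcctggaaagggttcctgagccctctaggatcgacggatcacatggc
Stat2, chr10:128270248-128270547, plus strand: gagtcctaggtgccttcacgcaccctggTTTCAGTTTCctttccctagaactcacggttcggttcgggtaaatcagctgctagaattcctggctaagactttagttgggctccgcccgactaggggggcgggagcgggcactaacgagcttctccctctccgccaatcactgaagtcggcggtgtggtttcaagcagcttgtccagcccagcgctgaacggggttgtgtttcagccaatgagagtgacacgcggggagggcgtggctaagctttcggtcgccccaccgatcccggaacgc
Irf1, chr11:53769764-53770063, plus strand: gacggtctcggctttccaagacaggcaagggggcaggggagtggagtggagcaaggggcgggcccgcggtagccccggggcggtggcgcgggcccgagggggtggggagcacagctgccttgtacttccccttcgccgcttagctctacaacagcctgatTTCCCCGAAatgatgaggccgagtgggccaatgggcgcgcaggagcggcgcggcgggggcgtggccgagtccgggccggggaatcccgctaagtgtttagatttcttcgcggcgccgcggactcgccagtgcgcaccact
The ISRE core was found in the promoters of 5 of the 9 members, B2m, Ifitm3, Isg15, Bst2 and Stat2, and in 3.44% of all 32851 promoter windows of the same length. In Isg15 3 overlapping matches began at positions -78, -72 and -66 from the start. In B2m the single match began at -139 and in Stat2 at -222. Bst2 had overlapping matches at -130 and -124, and Ifitm3 had matches at bases 3 and 20 after the start. The GAS core was found in Irf1 at -90, in Bst2 at -136 and in Ifitm3 at base 14, and in 8.30% of all windows. In Irf7, Irf9 and Tap1 neither set of letters was in these windows. A match describes the sequence and is not evidence of binding in these cells.

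The direction of every comparison rests on 1 reading of the table. The numerator of the fold changes is not stated in the authors' deposited table, whose title names control before miR-148a. As deposited, the 1564 tested genes with a TGCACTG or TGCACTGA match to the miR-148a-3p seed in their longest 3' UTR had a median log2 fold change of 0.07, and the 8318 genes without one had -0.01. Since a microRNA lowers the transcripts it pairs with, the values are read as control over miR-148a and all signs below are turned, so that negative means lower with miR-148a. The shift of these genes is then no independent evidence that targets fell, and if the reading is wrong, every direction turns together. Sizes, errors and p-values do not depend on it. No value per library is in the table, so levels cannot be given for each group, and each error is the standard error (SE) that the authors give for a log2 fold change.

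Of the 9 members, 2 were lower with miR-148a, none was higher, 3 did not pass the test, 2 had too low a base mean for an adjusted p and 2 were listed at 0. Lower genes made up 16.8% of the 11038 tested genes, higher genes 16.7% and changed genes 33.5%, by the authors' deposited table at an adjusted p of 0.05. With 5 tested members, a count of 2 is too small to set apart from these shares. With a fold change of at least 1.5 also required, 0 members were lower. By that rule 994 of the 11038 tested genes were lower and 644 higher, so a count of 0 among 5 says little. At an unadjusted p under 0.05, 3 members were lower and none higher in the authors' deposited table. The share of all genes past that unadjusted threshold was not computed. The median over the 5 tested members was -0.23 on the log2 scale and over all tested genes -0.01. In bulk RNA, fewer cells of a type and less RNA per cell cannot be told apart.

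**Figure D1:**
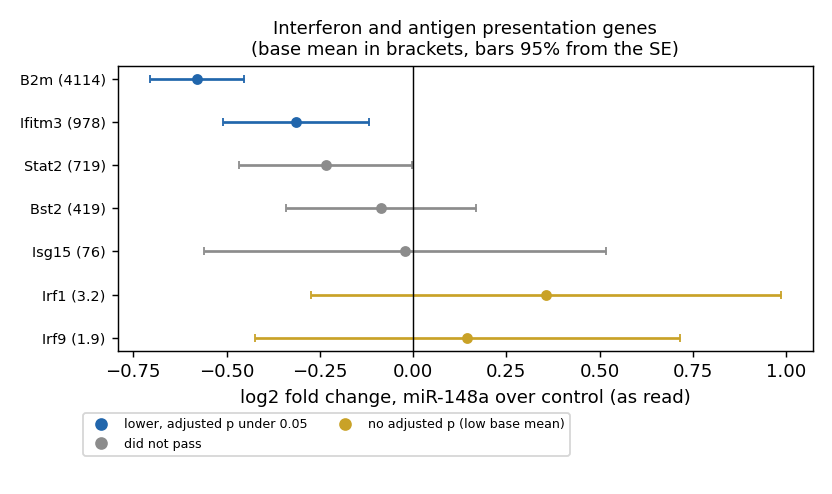
Log2 fold change (x axis, miR-148a over control as read) of the 7 members with a fold change in the authors' deposited table, with bars of 95% computed from the SE and base means in brackets. The bars of B2m and Ifitm3 lie below 0, that of Stat2 ends at -0.0037, and those of Bst2, Isg15, Irf1 and Irf9 cross 0.

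B2m fell by the largest amount of the 5 tested members. It encodes beta-2 microglobulin, the invariant light chain of classical MHC class I molecules. The authors' deposited table has it 1.49-fold lower with miR-148a, a log2 change of -0.58 ± 0.06 SE (adjusted p = 7.74e-18), with a base mean of 4114 for NM_009735. The 95% interval from that SE ran from -0.71 to -0.45. Among the 1856 lower genes its p was the 251st smallest, and 89.0% of tested genes had a lower base mean. No run of 50 bases of its annotated transcripts was found in the transcripts of another gene.

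Ifitm3, a membrane protein that blocks the entry of enveloped viruses from endosomes, also fell. The authors' deposited table has it 1.24-fold lower, a log2 change of -0.31 ± 0.10 SE (adjusted p = 0.00680), with a base mean of 978 for NM_025378. Of its 629 runs of 50 bases, 63 occur in transcripts of other genes, so part of its reads could have been placed on relatives or pseudogenes. Its paralog Ifitm2, with the same antiviral role, had a base mean of 4630 and was 1.49-fold lower in the authors' deposited table (-0.58 ± 0.07 SE, adjusted p = 2.16e-13). Ifitm2 shares 48.5% of its runs with other genes, mostly annotated as predicted genes. The third paralog, Ifitm1, was listed at 0 for all 4 of its transcripts in the authors' deposited table.

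Stat2, Bst2 and Isg15 did not pass the test. Stat2, the subunit of ISGF3 that activates transcription, lay at -0.23 ± 0.12 SE on the log2 scale of the authors' deposited table (p = 0.0464, adjusted p = 0.121), with a base mean of 719 for NM_019963. Bst2, or tetherin, which holds budding virions at the cell surface, lay at -0.09 ± 0.13 SE in the authors' deposited table (adjusted p = 0.691, base mean 419 for NM_198095), with an interval from -0.34 to 0.17. Isg15, a ubiquitin-like protein that is attached to other proteins after interferon, lay at -0.02 ± 0.27 SE in the authors' deposited table (adjusted p = 0.967, base mean 76.0 for NM_015783). Its interval, from -0.56 to 0.52, allows anything from 1.47-fold lower to 1.43-fold higher. Its base mean was the lowest of the 5 tested members.

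**Figure D2:**
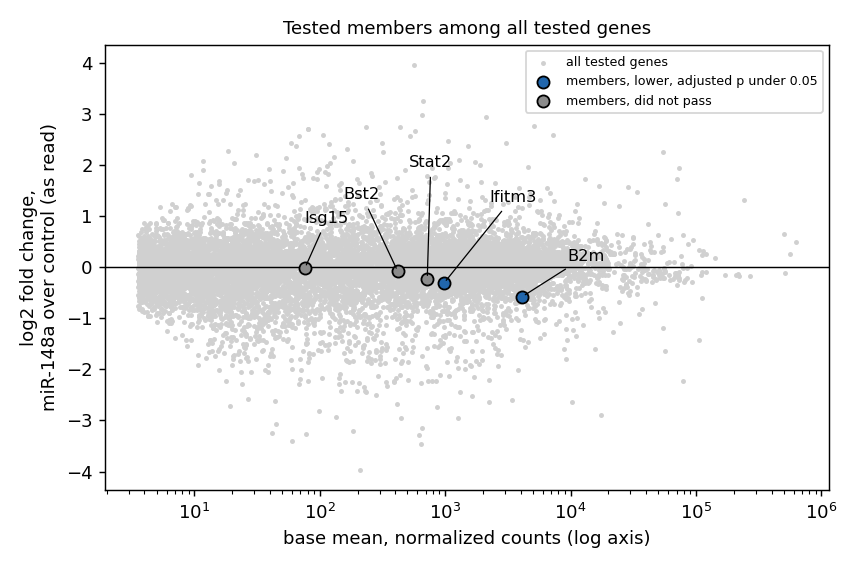
Base mean (x axis, normalized counts, log axis) against log2 fold change (y axis, miR-148a over control as read) for the 5 tested members, as large points, among all 11038 tested genes. The members lie at log2 fold changes from -0.58 (B2m) to -0.02 (Isg15), inside the range of the other genes.

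Levels were set side by side per kilobase of the annotated transcript. B2m had a base mean per kilobase of 4784, Ifitm3 1442, Bst2 529, Stat2 164 and Isg15 101, computed from the authors' deposited table. No spread over libraries can be given for these levels, so the neighbours Stat2 and Isg15 are not shown to differ.

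The transcription factors Irf1, Irf7 and Irf9 and the transporter gene Tap1 could not be compared. Irf1, which drives class I and GBP genes after interferon-gamma, had 1 of its 3 transcripts above 0, at a base mean of 3.25 and untested, in the authors' deposited table (log2 change 0.36 ± 0.32 SE). Irf9, the DNA-binding subunit of ISGF3, had 2 of its 3 transcripts above 0 in the authors' deposited table, at base means of 1.90 and 1.78, with log2 changes of 0.15 ± 0.29 SE and -0.10 ± 0.28 SE. The authors' deposited table lists all 3 transcripts of Irf7, the amplifier of interferon production, at 0. It also lists at 0 both transcripts of Tap1, a subunit of the transporter that carries peptides into the endoplasmic reticulum.

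Those 4 genes share a property that the 5 tested members lack: each has 2 or 3 RefSeq transcripts in the authors' deposited table, and each tested member has 1. Over all pathway genes listed here, members included, 69.6% of the 112 with 1 transcript were tested, against 19.3% of the 83 with 2 or more. Over all genes in the authors' deposited table, the shares were 50.5% of 16870 and 30.6% of 8242. The part of transcript number in the low values was not tested, and a value at 0 is no measurement of absence. Exons of Irf1, Irf7 and Tap1 also overlap a gene on the opposite strand, by 3.40%, 1.19% and 3.87% of their exon bases, and those of Irf9 overlap Rnf31 on the same strand by 2.28%.

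The other genes of the pathway were read from 13 lists, with 187 genes between them. Of the 89 tested, 17 were lower with miR-148a (19.1%), 11 higher (12.4%) and 61 did not pass, in the authors' deposited table. The shares over all tested genes were 16.8% lower and 16.7% higher. The median of these related genes lay at -0.17 on the log2 scale and that of all tested genes at -0.01. Counts in the single lists below rest on few tested genes and were not tested against these shares.

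**Figure D3:**
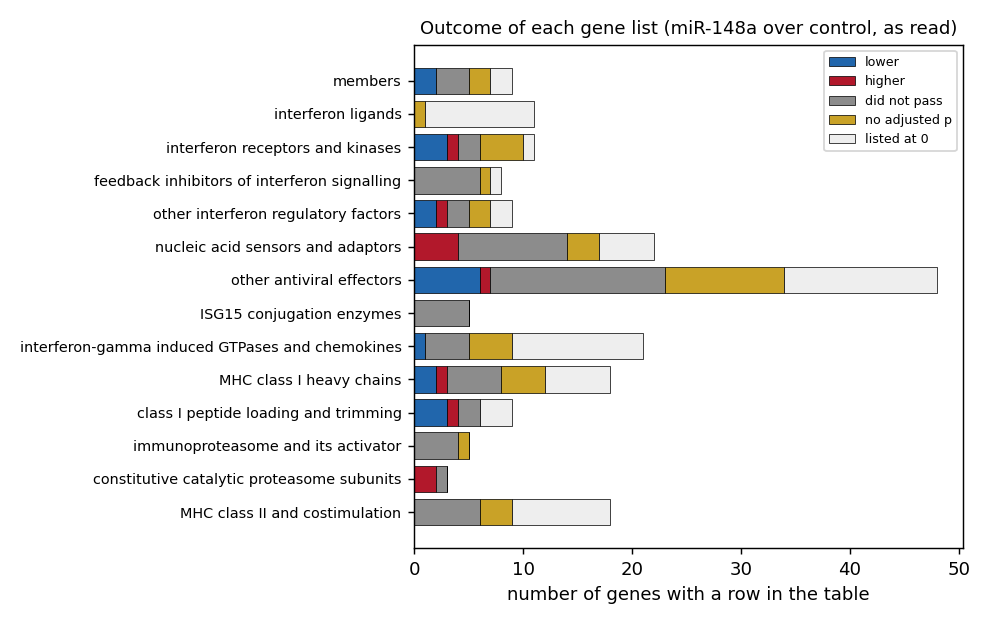
Number of genes (x axis) in the 9 members and each of the 13 related lists (y axis), coloured by outcome in the authors' deposited table: lower or higher with miR-148a at an adjusted p under 0.05, not passed, no adjusted p, or listed at 0. The antiviral effectors hold 6 lower genes and 1 higher, and the sensors and adaptors hold 4 higher and none lower.

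Interferon genes themselves were barely counted. The authors' deposited table lists 10 of 11 ligand genes at 0, among them Ifnb1, Ifng and the keratinocyte interferon Ifnk, each with 1 transcript, and Ifnz had a base mean of 1.27. None of the 11 was tested.

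Receptor subunits for interferon-gamma were lower with miR-148a. Of 6 tested genes among receptors and their kinases 3 were lower, 1 was higher and the other 2 missed the threshold; the median was -0.28. Ifngr1, the ligand-binding chain of the interferon-gamma receptor, was 2.36-fold lower in the authors' deposited table (-1.24 ± 0.08 SE, adjusted p = 5.78e-50, base mean 1829). Its partner chain Ifngr2 was 1.31-fold lower (-0.39 ± 0.08 SE, adjusted p = 1.43e-05), and Il10rb, a chain shared by the receptors for IL-10, IL-22 and interferon-lambda, was 1.47-fold lower in the authors' deposited table (-0.55 ± 0.08 SE, adjusted p = 8.04e-10). Ifnlr1, the other chain of the interferon-lambda receptor, was 1.35-fold higher in the authors' deposited table (0.43 ± 0.12 SE, adjusted p = 0.00229). Stat3, with 3 transcripts, was listed at 0 in the authors' deposited table and was not tested.

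Feedback inhibitors gave no call. None of the 6 tested passed, and none had an unadjusted p under 0.05 in the authors' deposited table. Pias1, an inhibitor of activated STAT proteins, had 0.04 ± 0.08 SE and Socs3, a kinase inhibitor induced by cytokines, 0.09 ± 0.09 SE in the authors' deposited table. The rest, Usp18, Ptpn2, Ptpn6 and Cish, had base means of 11.2 to 76.7 and SEs of 0.27 to 0.39. Changes of moderate size could have been missed in them. Over all tested genes, 33.5% changed.

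The remaining interferon regulatory factors and their binding partners split. Of 5 tested genes 2 were lower and 1 higher in the authors' deposited table. Irf2bp2, a partner of IRF2, was 1.39-fold higher (0.47 ± 0.07 SE) and its relative Irf2bpl 1.29-fold lower in the authors' deposited table (-0.37 ± 0.11 SE).

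Sensors and adaptors that start an interferon response had 4 higher genes and none lower among 14 tested, with a median of 0.09. Among all tested genes 16.7% were higher and 16.8% lower. At an unadjusted p under 0.05, 2 genes were lower and 4 higher in the authors' deposited table. Ddx58, which encodes the RNA sensor RIG-I, was 1.79-fold higher in the authors' deposited table (0.84 ± 0.11 SE, adjusted p = 6.18e-13, base mean 1236). Ticam1, the adaptor of the double-stranded RNA receptor TLR3, was 1.40-fold higher in the authors' deposited table (0.49 ± 0.11 SE, adjusted p = 0.000117). Eif2ak2, the double-stranded RNA-activated kinase PKR, was 1.21-fold higher in the authors' deposited table (0.27 ± 0.10 SE, adjusted p = 0.0154). The fourth, Tlr4, senses bacterial lipopolysaccharide and not nucleic acid, and was 1.40-fold higher in the authors' deposited table (0.48 ± 0.18 SE, adjusted p = 0.0243).

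**Figure D4:**
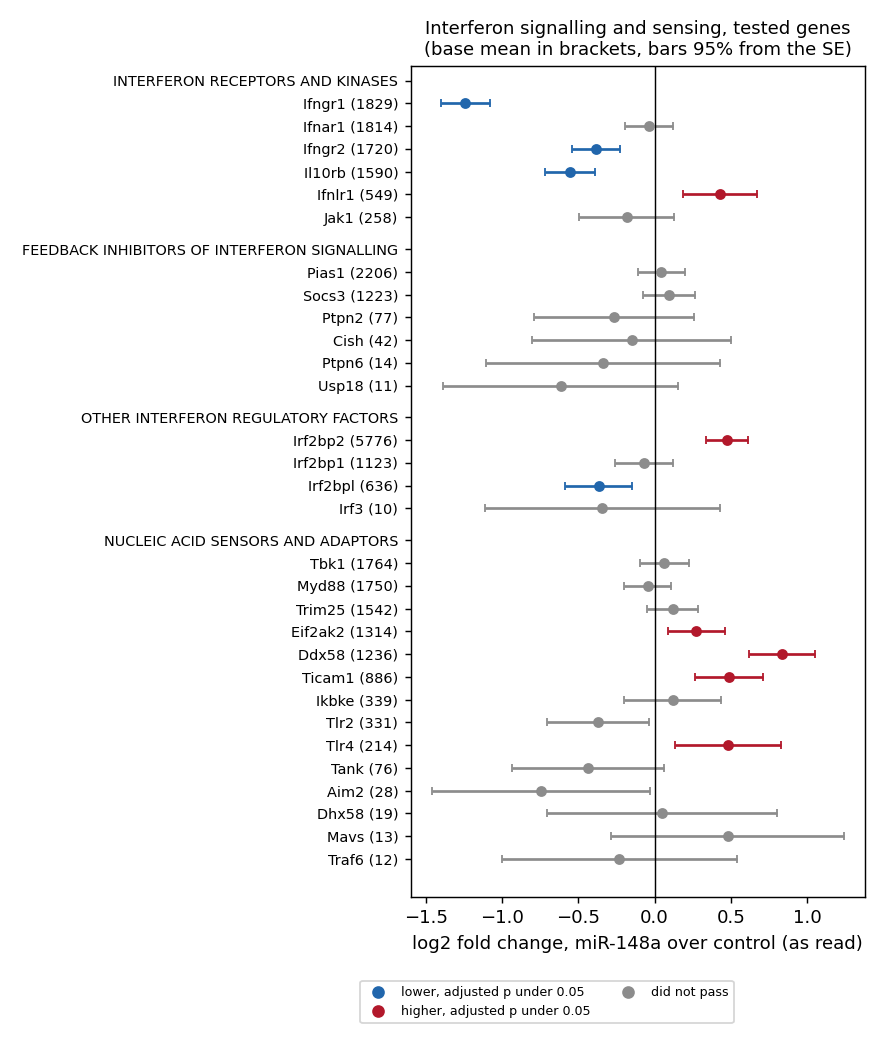
Log2 fold change (x axis, miR-148a over control as read) of tested genes among receptors and kinases, feedback inhibitors, regulatory factors and sensors, with bars of 95% from the SE and base means in brackets. Ifngr1 lies farthest to the left at -1.24 and Ddx58 farthest to the right at 0.84.

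Antiviral effectors other than the members were mostly not tested or did not pass. Of 48 listed genes 14 were at 0, 11 had no adjusted p and 23 were tested, of which 6 were lower, 1 higher and 16 did not pass, in the authors' deposited table. Most of those at 0, among them Adar, Sp100 and Pml, have 2 or more transcripts. Slfn2, a Schlafen family gene studied in T cells and macrophages, was 5.36-fold lower in the authors' deposited table (-2.42 ± 0.25 SE, adjusted p = 6.80e-21). Zc3hav1, the antiviral zinc finger protein ZAP, was 1.56-fold lower in the authors' deposited table (-0.65 ± 0.10 SE). Ifit3b, an RNA-binding effector at a base mean of 9.16, was 2.23-fold lower in the authors' deposited table (-1.15 ± 0.39 SE, adjusted p = 0.0127) and shares 877 of its 1951 runs of 50 bases with other genes, nearly all with Ifit3. Plscr1, a phospholipid scramblase induced by interferon, was 2.20-fold higher in the authors' deposited table (1.14 ± 0.23 SE, adjusted p = 4.77e-06, base mean 112). Ifi35 was also lower (-0.47 ± 0.12 SE, authors' deposited table), named here after its value was seen.

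Enzymes that attach or remove ISG15 gave no call, like Isg15 itself. None of 5 passed, and none had an unadjusted p under 0.05, in the authors' deposited table. The ligase Trim25 had 0.12 ± 0.09 SE and the conjugating enzyme Ube2l6 0.50 ± 0.28 SE in the authors' deposited table. Of the genes that follow interferon-gamma most closely, the authors' deposited table lists 12 of 21 at 0 and 5 were tested. The guanylate-binding protein gene Gbp2 was 1.99-fold lower in the authors' deposited table (-0.99 ± 0.39 SE, adjusted p = 0.0357, base mean 16.4), and the other 4 did not pass.

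Class I heavy chains, the partners of B2m, went in either direction. Of 8 tested genes 2 were lower, 1 higher and 5 did not pass in the authors' deposited table. H2-D1, a classical heavy chain that presents peptides to CD8 T cells, was 1.51-fold higher in the authors' deposited table (0.59 ± 0.10 SE, adjusted p = 4.82e-08, base mean 950), the opposite side from B2m. H2-T23, the heavy chain of Qa-1, a ligand of natural killer cell receptors, was 1.13-fold lower in the authors' deposited table (-0.17 ± 0.07 SE, adjusted p = 0.0344, base mean 3695). Cd1d1, which presents lipids to natural killer T cells, was 1.95-fold lower in the authors' deposited table (-0.96 ± 0.30 SE, adjusted p = 0.00582, base mean 50.9). The heavy chain genes are close relatives: 12.8% of the runs of 50 bases of H2-D1 and 13.6% of those of H2-T23 occur in other genes. H2-K1, the other classical chain of this strain, was listed at 0 for both of its transcripts in the authors' deposited table.

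Genes that load and trim class I peptides were lower in 3 cases and higher in 1 among 6 tested. Nlrc5, the transactivator of class I genes including B2m and Tap1, was 4.88-fold lower in the authors' deposited table (-2.29 ± 0.31 SE, adjusted p = 4.87e-12, base mean 68.7). Erap1, the aminopeptidase that trims peptides in the endoplasmic reticulum, was 1.53-fold lower in the authors' deposited table (-0.62 ± 0.07 SE, adjusted p = 6.01e-16). Pdia3, the disulfide isomerase of the peptide-loading complex, was 1.24-fold lower (-0.31 ± 0.06 SE) and its chaperone partner Calr 1.21-fold higher in the authors' deposited table (0.28 ± 0.06 SE). Tap2, the other subunit of the peptide transporter, stood at -0.27 ± 0.17 SE in the authors' deposited table, short of the threshold (adjusted p = 0.245).

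None of the 4 tested immunoproteasome genes passed, and none had an unadjusted p under 0.05, in the authors' deposited table. The activator subunit Psme1 had 0.01 ± 0.09 SE and the catalytic subunit Psmb10 -0.28 ± 0.20 SE in the authors' deposited table. Of the 3 constitutive subunits that immunoproteasome subunits replace, Psmb7 was 1.17-fold higher (0.23 ± 0.06 SE, adjusted p = 0.000934) and Psmb6 1.15-fold higher in the authors' deposited table (0.21 ± 0.08 SE, adjusted p = 0.0213). None of 6 tested class II and costimulation genes passed, and none had an unadjusted p under 0.05, in the authors' deposited table: Rfxap, a subunit of the class II promoter complex, had 0.19 ± 0.10 SE, and H2-Eb1, a class II chain of antigen-presenting cells at a base mean of 21.2, had 0.61 ± 0.37 SE.

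**Figure D5:**
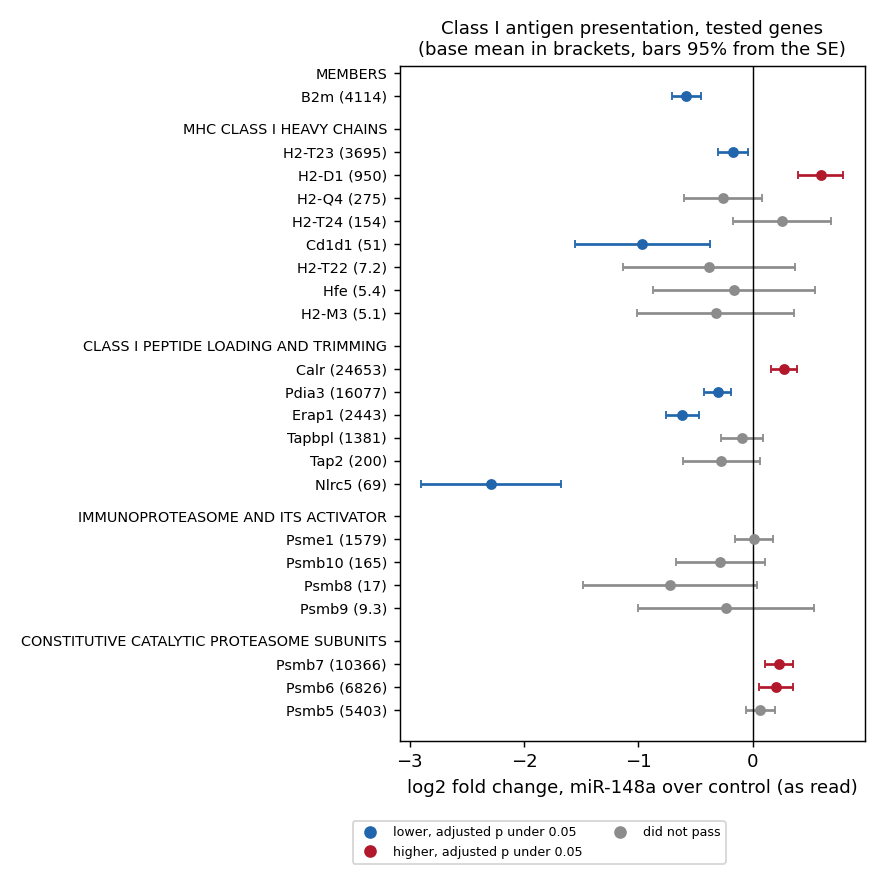
Log2 fold change (x axis, miR-148a over control as read) of B2m and of the tested genes of class I presentation, with bars of 95% from the SE and base means in brackets. Nlrc5 lies farthest to the left at -2.29, and B2m (-0.58) and H2-D1 (0.59) lie on opposite sides of 0.

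Seed matches for miR-148a-3p were searched in the longest annotated 3' UTR of every gene. Of the 9 members, Stat2 had the 7-base match TGCACTG, Irf9 had GCACTGA and the other 7 had neither, nor the 6-base GCACTG. B2m and Ifitm3, the members that fell, were among those with no match. Of the matches, those of the types 7mer-m8 (TGCACTG) and 8mer (TGCACTGA) are shown for Stat2 and for the named pathway genes that changed, 1 for each gene, with the match in capitals and 11 bases of GENCODE M21 sequence on each side.
Stat2, 7mer-m8: atgtgaggaccTGCACTGtggccgttctc
Il10rb, 7mer-m8: cttcctgatgcTGCACTGgtacacacaac
Pdia3, 7mer-m8: tgtttcttagcTGCACTGtttgaaaatac
Cd1d1, 8mer: tttatgggattTGCACTGAactagaaagca
H2-D1, 7mer-m8: gaccctatcccTGCACTGccctgtgttcc
Ddx58, 8mer: cttctgtccctTGCACTGAttcctttccgg
Il10rb, Pdia3 and Cd1d1 were lower with miR-148a, and H2-D1 and Ddx58, which has this 8mer beside a 7mer-m8, were higher, in the authors' deposited table. The longest UTR can belong to another transcript than the one measured. That of Il10rb, 2478 bases with the site at base 1826, is longer than its whole measured transcript of 1850 bases. Its site may be missing from that transcript, though Il10rb is counted below with a 7mer-m8. Shorter matches, not printed, were the best ones in other named genes that changed: the 7mer-A1 (GCACTGA) in Slfn2, H2-T23, Tlr4, Irf2bp2 and Calr, and the 6mer (GCACTG) in Ifngr1, Nlrc5 and Gbp2. Each of the 94 tested pathway genes, members included, was counted by its best match. Of 2 genes with an 8mer 1 was lower and 1 higher, and of 9 with a 7mer-m8 2 were lower and 1 higher. Of 8 with a 7mer-A1 2 were lower and 3 higher, of 14 with a 6mer 4 were lower and 0 higher, and of 61 with no match 10 were lower and 6 higher. Over all tested genes 16.8% were lower and 16.7% higher, and these shares were not computed for each type of match. The sign was set from genes with a 7mer-m8 or 8mer, so these counts are no independent evidence of targeting. A match in a single gene does not show that its change is direct.

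Markers of cell types were read beside these results. Their counts stand beside shares of 16.8% lower and 16.7% higher over all tested genes, and were not tested against them. Of keratinocyte markers, Krt5 had the highest base mean in the authors' deposited table (630448) and was higher with miR-148a (0.49 ± 0.06 SE), while Dsg3 (-0.39 ± 0.06 SE) and Sfn (-0.21 ± 0.06 SE) were lower; 8 of 9 were tested and the other 5 did not pass. Krt14 (3 transcripts) stood at a base mean of 40.3 and Trp63 (8 transcripts) was listed at 0 in the authors' deposited table. Fibroblast markers had 5 lower genes and none higher of 8 tested, at an unadjusted p under 0.05 as well. In the authors' deposited table Thy1 was 1.81-fold lower (-0.85 ± 0.12 SE), Col3a1 1.44-fold lower (-0.53 ± 0.08 SE) and Col1a2 1.35-fold lower (-0.43 ± 0.09 SE). The base means of the 8 fibroblast markers summed to 25055, against 956657 for the 9 keratinocyte markers. Of 5 tested immune markers 3 were lower and 1 higher. In the authors' deposited table C1qa (-2.72 ± 0.39 SE), Lyz2 (-2.63 ± 0.34 SE) and C1qb (-1.07 ± 0.39 SE) were lower, at base means of 19.4, 43.8 and 10.6. The 2 most abundant immune markers, named after their values were seen, did not fall by this test. Cd68 (base mean 416) did not pass (-0.16 ± 0.14 SE, adjusted p = 0.463), and Csf1r (base mean 188) was higher (0.76 ± 0.20 SE). Ptprc and Adgre1 (3 transcripts each), Itgam (2 transcripts) and Cd3g (1 transcript) were listed at 0, which is no measurement of absence. The Langerhans cell marker Cd207 was listed at 0, and neither of 2 tested dendritic cell markers, Xcr1 and Batf3, passed in the authors' deposited table. Mlana, 1 of 4 tested melanocyte markers, and Vwf, the 1 tested endothelial marker, were lower in the authors' deposited table, where 2 of 7 melanocyte and 4 of 6 endothelial markers were listed at 0. Of those at 0, Tyrp1, Kit, Pecam1, Tek and Emcn have 2 or more transcripts and Cldn5 has 1. Base means summed to 678 over the immune, 16.4 over the dendritic, 15004 over the melanocyte and 104 over the endothelial markers. All these marker sums, the fibroblast and keratinocyte ones included, depend on which markers were listed at 0. They do not compare the amounts of the cell types. The part of these cell types in the values of B2m, Ifitm3, Slfn2 and Nlrc5 was not tested. Summed marker levels per group cannot be given without values per library.

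The authors' deposited table of gene ontology categories has 951 categories, 18 of which name interferon, an antigen, the MHC, a virus or an immune process, none of them by the word interferon. None of the 18 passed an adjusted p of 0.05 for over- or under-representation. Most of them held only 1 gene, and 13 held 0 changed genes. Categories of that size could hardly pass among 951, so no conclusion is drawn from this. The lowest p-values of over-representation were 0.0322 for positive regulation of the host's defense response to virus, with 2 changed of 2 genes, and 0.0380 for immune system process, with 10 of 32, in the authors' deposited table.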

How the data were processed

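RNA of 3 miR-148a and 3 control libraries was sequenced, and groups follow the treatment label. The submitters' processing notes name DESeq2 and mm9; which aligner, read counter or annotation was used is not stated in the labels or headers. The authors' expression table holds, per the file headers, 1 line for each RefSeq transcript: its base mean (a signal, the normalized count averaged over libraries), log2 fold change, standard error and Wald statistic (scores), p-value and adjusted p-value. Their GO table, as deposited, holds counts of genes and p-values. The authors gave no value per library, so depth is unknown, no edgeR or limma test could be run, and their adjusted p at 0.05 stands in for the planned test.

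Transcripts were matched to symbols by accession (42739 of 42885, RefSeq GRCm38.p6). Transcripts with base means under 3.56 had no adjusted p. The SE never exceeded 0.39, also where counts were low, so folds of weakly counted genes may be understated. Intervals (95%) span 1.96 SE on either side. 3' UTRs of at least 20 bases came from GENCODE M21. The named genes were all members and, in each list, every gene past 0.05 or the 6 with the largest change (3 for markers), or the 2 most abundant where none passed. Some genes that this rule names are not reported here, although the counts over lists include them. The members and lists were chosen with earlier results of these data known. Python 3.11.15, pandas 2.3.3 and SciPy 1.17.1 were used.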

Additional observations from a re-analysis of the deposited data

How the results depend on the processing

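The count of 2 lower members held at an adjusted p of 0.01, with p adjusted over 1 transcript per gene, at base means of at least 100, after recentring on the median of all tested genes (-0.01) and with the transcripts of a gene averaged by inverse variance. No member was higher under any of these. With a fold change of at least 1.5 also required, the count of lower members was 0, since B2m lay at 1.49-fold. No member was higher. Of all 11038 tested genes, 994 were lower and 644 higher by the fold rule. At an adjusted p of 0.01, 1436 were lower and 1444 higher. The 5 tested members kept their direction and their side of the threshold in all 15 alternatives run for them. Most of these could not have changed a direction. Each tested member has 1 transcript, so averaging left its value as it was, and adjusting p anew does not touch the fold change. Recentring moved each value only by the median. The adjusted p of Stat2 ran from 0.116 to 0.139. Over the related lists, lower genes numbered 12 to 17 and higher genes 8 to 11. The number tested was 89 except at base means of at least 100, where it was 42. In that setting 12 were lower and 11 higher, so lower genes barely outnumbered higher ones. All genes leaned to higher in that setting, with 1500 lower and 1693 higher of 6423. The nearly even counts therefore do not show that the related lists moved closer to all genes. The site difference that sets the direction was 0.08 as deposited, and 0.08 to 0.15 under the 3 alternatives. No paired analysis was possible because the tables hold no value per library, and for the same reason leaving out each replicate was not run. Depth per library is unknown. The SE was 0.37 in the median at base means under 100 and 0.08 at 1000 or more. It limits what can be said of Isg15, of most effectors and of weakly counted genes in the lists without a call.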
